A study of Gallus gallus with 7 samples.

Results

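A total of 1331 chromatin regions of chicken neural crest cells lay between genes, more than 20 kb from the nearest transcription start site (TSS). They were chosen by position alone: on chromosomes 1 to 10, no overlap with the span of any gene of the deposited gene table (smallest exon start to largest exon end), and a nearest TSS more than 20 kb from the edge of the region. They are 5.23% of the 25469 regions of the series and 16.0% of the 8323 regions on those chromosomes. Of the 1331 regions, 390 lay over 100 kb from a TSS and are called gene desert regions here, and 941 lay over 20 and up to 100 kb away. The name refers to the distance from a TSS only, and a gene body can lie closer. Every region of the set is 500 bp wide, as end minus start.

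All samples came from wild-type chicken embryos, as cells of the vagal level that were dissociated and sorted by a citrine reporter. The chromatin libraries were made at Hamburger and Hamilton stage 18 (HH18) from cells positive for the E2 reporter, electroporated at HH8. They comprise 2 libraries each of sox10 pull-down, tfap2B pull-down and input, and the factors carried an Avi tag that BirA biotinylates, so that streptavidin took the place of an antibody. The labels do not say whether the inputs carried the tagged factors too. A single RNA library came from HH10 cells positive for the NC2 reporter, electroporated at HH4. The tagged factors were introduced by electroporation, so the pull-downs report these and not the factors made by the cells themselves, and a streptavidin control lacking any tagged factor is not among the libraries.

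Neural crest cells leave the dorsal neural tube, migrate and form neurons, glia, pigment cells and, in the head, skeletal tissue; those of the vagal level build most of the enteric nervous system. SOX10 is an HMG-box factor that keeps crest cells multipotent and directs glia, pigment cells and enteric progenitors. TFAP2B is an AP-2 family factor of the crest and of sympathetic neurons. Regulatory DNA of developmental genes in vertebrates often lies far from the promoter, and long intervals without genes frequently flank such genes.

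The values are scaled reads: each library's whole reads times its own constant, 1 read being worth 1.20 and 2.34 in the sox10 libraries, 0.895 and 2.08 with tfap2B and 0.695 and 0.363 as input. Reads in all regions numbered 2533921 and 1366132 (sox10), 3498728 and 1405830 (tfap2B), and 7989029 and 13921317 (input). The smallest value in each library is 1 read, so a listed 1 can stand for 0 or 1. Labels do not say whether the 2 libraries of a group came from separate embryos, and p-values reflect no more than how these libraries spread, which may be technical. Over the 1331 regions the median absolute log2 difference between the libraries of a group was 0.38 between the sox10, 0.61 between the tfap2B and 1.51 between the input libraries. Library 1 and library 2 differed by more than 2 on the log2 scale in 10 regions for sox10, in 91 for tfap2B and in 490 for input. Each test takes 1 spread per region, shared by all groups in its fit, which against input are sox10, tfap2B and input. Standard errors (SE) and p-values are therefore not the spread of the groups compared, and do not show the wider spread of the inputs.

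The nearest TSS lay at a median of 55.3 kb, and the farthest at 556 kb. Gene desert regions had a median distance of 165 kb. The gene with the nearest TSS was transcribed away from the region in 772 of the 1331 regions (58.0%), so that the region lay upstream of it. Among gene desert regions this held for 196 of 390 (50.3%), and among the nearer regions for 576 of 941 (61.2%). The rule leaves out gene spans, and a gene transcribed toward a region has its TSS at its far end. The rule itself thus favours upstream regions. Shares at other intergenic positions were not taken, so no preference can be read from these. A gene body could be closer than a TSS: 41 regions lay within 5 kb of one, and 1 of these was a gene desert region. The intervals between genes that hold the regions had a median length of 197 kb per region, and 447 kb for gene desert regions. Chromosome 1 held 426 of the 1331 regions and chromosome 2 held 306. The set made up 21.6% of the regions on chromosome 1 and 20.8% on chromosome 2, but 5.48% on chromosome 9 and 7.10% on chromosome 10.

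Most regions stood alone: 810 had no other region of the set within 50 kb, and 227 had one within 10 kb. Chaining neighbours less than 50 kb apart gave 159 pairs, and 3 chains reached 7 regions. The limits of 20 and 100 kb are set distances, and single regions do not describe the level around them. Medians for the 184 intergenic regions just under 20 kb were sox10 118 and 123, tfap2B 97.5 and 92.7, input 57.7 and 97.8. For the 139 just over it they were 119 and 133, 104.7 and 106, and 43.8 and 83.8. The 103 just under 100 kb had 117 and 126, 56.4 and 66.6, and 32.7 and 9.07. The 88 just over it had 109 and 129.9, 66.2 and 70.8, and 36.5 and 9.80. The single regions at each limit differed in level. The first region beyond 20 kb had 105 and 88.9 scaled reads with sox10, 228 and 110.4 with tfap2B and 26.4 and 45.7 with input. The last region before it had 117 and 147 with sox10, 184 and 83.3 with tfap2B and 167 and 259 with input. At 100 kb the first region beyond had 113 and 149.7 in sox10, 179.9 and 117 in tfap2B, and inputs of 131 and 207, and the last one before had 46.9 and 30.4 in sox10, 4.47 and 27.1 in tfap2B, and inputs of 20.1 and 4.72.

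The tfap2B medians and that of input library 2 were lower in each step farther from a TSS or equal to the step before, while the sox10 medians and that of input library 1 did not follow distance step by step. Median scaled reads over the far intergenic regions were 117 and 122 for the pair of sox10 libraries, 74.3 and 79.1 for tfap2B and 38.2 and 15.2 for the inputs. The other 6992 regions of chromosomes 1 to 10 had 129 and 129 in sox10, 159 and 129 in tfap2B, and inputs of 106 and 209.9. The 905 intronic regions among them had 147 and 168 in sox10, 73.4 and 83.3 in tfap2B, and inputs of 25.7 and 6.89. From 20 to 50 kb the tfap2B medians were 99.3 and 93.7, from 50 to 100 kb 68.0 and 69.8, from 100 to 200 kb 62.6 and 65.6, and over 200 kb 40.3 and 46.9. Over the same 4 steps the sox10 medians were 120.2 and 124, 109 and 116, 119 and 129.9, and 82.9 and 102. The inputs had 45.2 and 52.3, 35.1 and 10.5, 36.8 and 10.5, and 32.6 and 8.35. These steps were not tested, and the inputs differ from each other most where they are low.

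**Figure D1:**
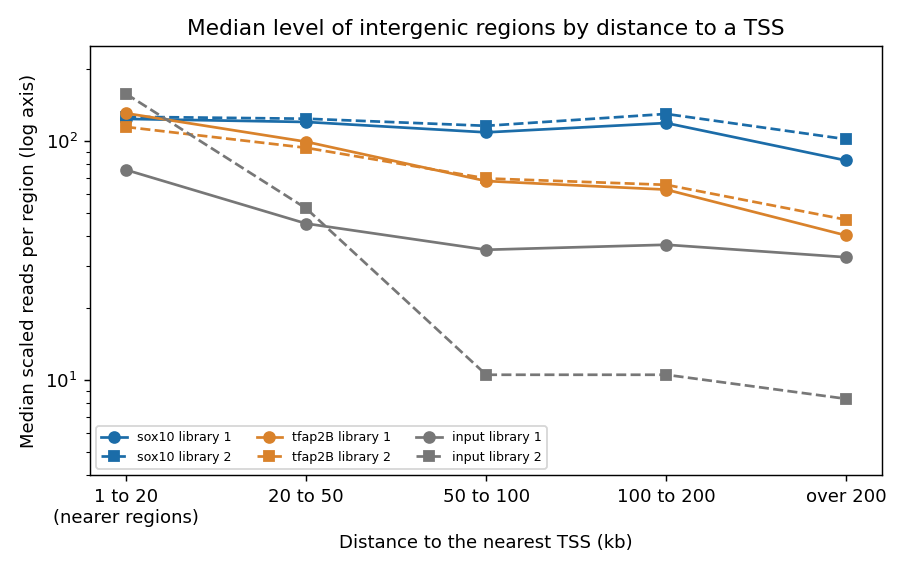
Median scaled reads per region (log axis) in each of the 6 libraries, for intergenic regions in 5 steps of distance to the nearest TSS (kb); the first step, 1 to 20 kb, is the nearer intergenic regions. The sox10 medians stay between 82.9 and 129.9 beyond 20 kb, whereas the tfap2B medians are 40.3 and 46.9 beyond 200 kb.

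High sox10 values were more frequent in the set than in the other regions of chromosomes 1 to 10 pooled. Most of those others, 4329 of 6992, lay within 1 kb of a TSS. Introns, also among the others, had upper quartiles of 208 and 267 scaled reads in sox10, above the 183 and 218 of the set. Shares at a fixed level were not taken for introns alone, so high sox10 is not shown to be particular to far regions. Both sox10 libraries reached 200 scaled reads in 251 of the 1331 regions (18.9%), against 622 of the other 6992 regions of these chromosomes (8.90%). For tfap2B, 99 of 1331 (7.44%) reached this level, against 871 of 6992 (12.5%). At 500 scaled reads in both libraries, far regions had the larger share for both factors: 18 of 1331 (1.35%), against 19 of 6992 (0.272%), for sox10, and 11 of 1331 (0.826%), against 16 of 6992 (0.229%), for tfap2B. Inputs reached 200 in both libraries in 113 far regions (8.49%), against 1585 of the others (22.7%). A fixed level in scaled reads stands for a different number of reads in each library, so the shares of sox10, tfap2B and input depend on the scaling and are not compared with each other.

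Across the 1331 regions the sox10 libraries followed each other closely. On log2 values Pearson's r was 0.88 and Spearman's rho 0.90 between the sox10 libraries, against 0.70 and 0.76 between the tfap2B libraries and 0.70 and 0.73 between the inputs. Between a sox10 and a tfap2B library r was 0.31 to 0.66. The tfap2B libraries correlated with the inputs at 0.23 to 0.55, whereas the sox10 libraries correlated with them at -0.20 to -0.04. In the 390 gene desert regions r between the sox10 libraries was 0.90, and in promoters (regions within 1 kb of a TSS) it was 0.71. Regions are not independent replicates, and they share libraries and depth, so these values only describe the 6 libraries.

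Sox10 was first set against input, to find where its pull-down enriched chromatin. Sox10 was higher than input in 429 of the 1331 far intergenic regions (32.2%), beside 18.4% of all 25281 regions tested, and lower in 67 (5.03%), beside 22.3% of all tested. Both sox10 libraries lay above both inputs in 667 regions (50.1%, beside 30.6% of all tested) and below both in 245 (18.4%, beside 44.4%). All 1331 regions passed the filter on low reads. The median log2 difference was 1.26 over the set and -0.40 over all tested regions. Among gene desert regions 133 of 390 (34.1%) were higher and 17 (4.36%) lower, with a median of 1.55. Intronic regions of the same chromosomes had a larger share of higher calls, 457 of 905 (50.5%), and promoters a smaller one, 131 of 4329 (3.03%). Lower calls were as rare in introns, 46 of 905 (5.08%), and both sox10 libraries lay below both inputs in 17.3% of introns. The share lower was 12.6% in all other regions of chromosomes 1 to 10, and 27.6% outside these chromosomes. By distance the share higher was 29.95% from 20 to 50 kb, 34.4% from 50 to 100 kb, 34.3% from 100 to 200 kb and 33.8% over 200 kb.

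**Figure D2:**
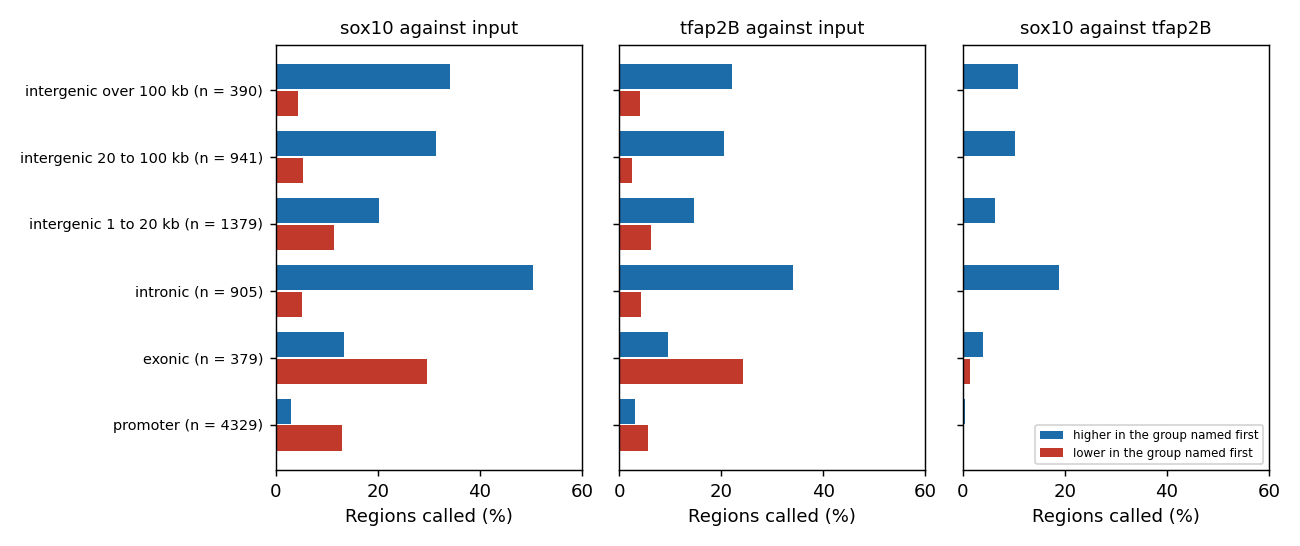
Percent of regions on chromosomes 1 to 10 called at adjusted p under 0.05 in each of 3 comparisons, by annotation class (n in brackets); blue bars are regions higher in the group named first and red bars those lower. Far intergenic regions lie below introns and above nearer intergenic regions, exons and promoters in their share higher in sox10 than in input.

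The 429 regions, called on these same values, had high sox10 and low input at the same time. Their median scaled reads were 197 and 239 with sox10, against 5.56 and 0.363 with input, and the 835 regions that did not pass the test had 81.7 and 86.6 in sox10, against 60.4 and 66.4 in input. In 129 of the 429 (30.1%) both inputs had at most 3 reads, in 186 (43.4%) only 1 of the inputs, and in 114 (26.6%) neither. All 129 far regions where neither input exceeded 3 reads were called, as were all 242 such regions elsewhere on these chromosomes. With inputs this low, a region passes the filter on low reads only through its pull-downs. These full shares are therefore no evidence about the far regions. Such empty inputs occurred in 9.69% of the far regions and in 12.1% of the gene desert regions, against 3.46% of the other regions. Among these others the share was 15.9% in introns and 0.231% in promoters. The part of empty inputs in the calls was not tested.

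Scaling and library choice bear on the count. Without sox10 library 1 the count of higher regions was 183, and without sox10 library 2 it was 106. The lower regions numbered 5 and 0 without sox10 libraries 1 and 2 (limma; 36 at an unadjusted p under 0.05 in the case of 0), 34 and 38 without tfap2B libraries 1 and 2, and 162 and 101 without inputs 1 and 2. Higher calls made up 86.5% of the called far regions as deposited, 97.3% with total reads and 96.1% with TMM factors, which also moved the median of all regions to 0.35 and 0.0050. The edgeR test called 299 higher and 14 lower.

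Regions are named for a difference only if they were called and the groups compared did not overlap, so lack of overlap is no finding about them. Nearer to a TSS than 100 kb, the strongest of the eligible regions was an intergenic region 31.2 kb downstream of a TSS, at chr1:153949552-153950052. It had 3627 and 9605 scaled reads for sox10, 5993 and 4015 for tfap2B, and its inputs were 83.4 and 0.726. Every pull-down library lay far above both inputs, and the inputs held 120 and 2 reads. The log2 difference of sox10 and input was 8.93 ± 1.50 (SE, adjusted p = 0.00563), but 11.74 without input library 1 and 6.13 without input library 2. The edgeR test called it for neither factor (adjusted p = 0.0649 for sox10 and 0.0814 for tfap2B).

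The regions ranked next in this class had inputs with almost no reads. At chr5:49353283-49353783, 23.0 kb upstream of a TSS in an interval of 346 kb, sox10 had 700.5 and 786 scaled reads, tfap2B 271 and 175, and input 0.695 and 3.99. The log2 difference of sox10 and input was 7.997 ± 0.74 (SE, adjusted p = 0.0028). At chr2:89957154-89957654, 49.0 kb downstream of a TSS, sox10 had 285 and 470.3, tfap2B 34.9 and 35.4, and input 0.695 and 0.363, which is 1 read in each input. No overlap of sox10 and input was a condition for naming this region, and sox10 stood apart from tfap2B too. At chr5:11401326-11401826, 35.2 kb upstream of a TSS, sox10 had 285 and 419, tfap2B 25.9 and 87.5, and input again 1 read in each library, for a log2 difference of 7.83 ± 0.92 (SE). Differences against inputs of 1 read depend on the pseudocount: with 10 in place of 1, they were 5.16 and 5.08 at these last regions.

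Within the gene deserts the largest difference was at chr2:146934137-146934637, 484 kb from the nearest TSS in an interval of 818 kb. Sox10 had 655 and 2424 scaled reads there, tfap2B 1183 and 1512, and input 0.695 and 0.363, 1 read in each. Every pull-down library lay far above both inputs, with log2 differences of 9.70 ± 0.68 for sox10 (SE, adjusted p = 0.0028) and 9.78 ± 0.68 for tfap2B (SE, adjusted p = 0.0069). Its neighbour at chr2:146903956-146904456, 501 kb from a TSS, had 144 and 171 in sox10, 159 and 173 in tfap2B, and inputs of 78.5 and 16.3, and neither log2 difference from input, 2.09 and 2.17, passed.

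The next gene desert region had more sox10 than tfap2B. At chr6:25582685-25583185, 143 kb from a TSS, sox10 had 918 and 999 scaled reads, tfap2B 70.7 and 106, and input 1 read in each library. The sox10 libraries lay above both tfap2B libraries too, and the log2 difference of sox10 and input was 9.30 ± 0.75 (SE, adjusted p = 0.0028). At chr2:113398146-113398646, 120 kb from a TSS, the factors were close in level, with 309 and 524 in sox10 and 317 and 464 in tfap2B, against 1 read in each input. At chr1:167382080-167382580, 102 kb from a TSS, sox10 had 294 and 356, tfap2B 62.6 and 110.4, and input 1 read in each.

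**Figure D3:**
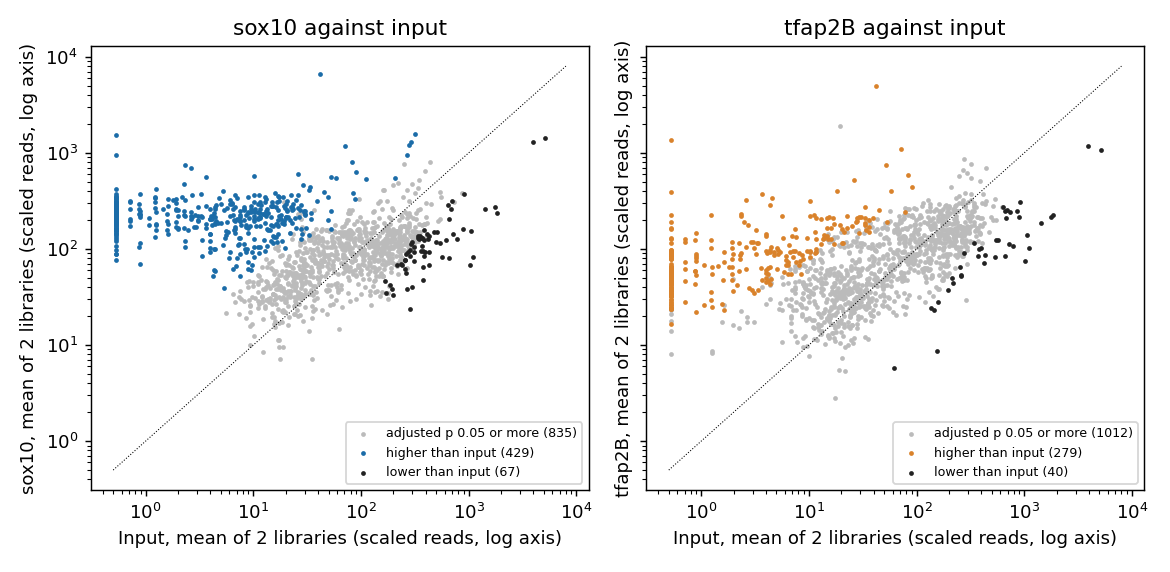
Mean scaled reads of the 2 sox10 libraries (left) or the 2 tfap2B libraries (right) against the mean of the 2 inputs, both on log axes, for the 1331 far intergenic regions; the dotted line marks equal values and colours mark the calls. The 429 regions higher in sox10 have medians of 197 and 239 in sox10, and the 279 regions higher in tfap2B lie mostly at low input, with medians of 75.2 and 87.5 in tfap2B.

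The same question was put to the other factor, tfap2B, set against input. Tfap2B was higher in 279 of the 1331 regions (21.0%), beside 10.8% of all tested regions, and lower in 40 (3.01%), beside 17.4% of all tested. Both tfap2B libraries lay above both inputs in 538 regions (40.4%, beside 26.1% of all tested) and below both in 193 (14.5%, beside 37.4%). The median log2 difference was 0.92 over the set and -0.14 over all tested regions. Among gene desert regions 86 of 390 (22.1%) were higher and 16 (4.10%) lower, with a median of 1.02. Intronic regions again had a larger share higher (34.0%) and promoters a smaller one (3.10%). No region of the set was called without tfap2B library 1 or without tfap2B library 2 (limma; 289 higher and 59 lower, and 245 and 48, at an unadjusted p under 0.05). The counts were 169 and 10 without sox10 library 1, 170 and 12 without sox10 library 2, 533 and 110 without input 1, and 463 and 89 without input 2. The edgeR test called 226 higher and 8 lower, and higher calls made up 87.5% of the called regions as deposited, 97.8% with total reads and 97.1% with TMM factors.

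In the 279 regions the tfap2B level itself was not high. Their medians were 75.2 and 87.5 scaled reads in tfap2B, against 0.695 and 0.363 in input, while the 1012 regions that did not pass the test had 72.5 and 72.9 in tfap2B, against 51.4 and 43.9 in input. The sox10 libraries had 202 and 239 in the same 279 regions and 94.9 and 101 in the 1012. Both inputs had at most 3 reads in 119 of the 279 (42.7%), and neither had in 70 (25.1%). Both comparisons use the same 2 inputs, so their calls are not independent of each other.

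Other regions with large differences of tfap2B and input had low inputs. For scale, promoters had tfap2B medians of 185 and 144 scaled reads. At chr3:44411038-44411538, 35.9 kb upstream of a TSS, tfap2B had 286 and 162 scaled reads, sox10 177 and 180.2, and input 1 read in each library. The log2 difference of tfap2B and input was 7.16 ± 0.80 (SE, adjusted p = 0.00727). At chr2:79844889-79845389, 20.7 kb from a TSS, tfap2B had 296 and 446, sox10 266 and 861, and input 6.95 and 0.363. At chr2:4478896-4479396, 36.1 kb upstream of a TSS, tfap2B had 278 and 173, sox10 264 and 351, and input 2.08 and 0.363. No overlap of tfap2B and input was a condition for naming these 3 regions. The sox10 libraries also lay above both inputs there, and in none did the factors differ beyond the threshold. Among the gene desert regions, chr2:61996124-61996624, 125 kb upstream of a TSS, had 212 and 169 in tfap2B, 118 and 194 in sox10 and 1 read in each input, and chr10:15498709-15499209, 229 kb away, had 170.03 and 152 in tfap2B, 207 and 297 in sox10 and 1 read in each input.

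The direct comparison of sox10 with tfap2B leaves the inputs out and asks where the factors differ. Sox10 was higher in 139 of the 1331 regions (10.4%), beside 2.47% of all tested regions, and lower in 0, beside 0.103% of all tested (limma; 35 were lower at an unadjusted p under 0.05, and edgeR also called 0 lower). Both sox10 libraries lay above both tfap2B libraries in 562 regions (42.2%, beside 25.9% of all tested) and below both in 207 (15.6%, beside 21.9%). The median log2 difference was 0.37 over the set, 0.59 over gene desert regions and 0.05 over all tested regions. These 139 regions are 22.2% of the 625 regions of the series that were higher in sox10 and 32.4% of the 429 such regions on chromosomes 1 to 10. Among gene desert regions 42 of 390 (10.8%) were higher, among introns 170 of 905 (18.8%) and among promoters 19 of 4329 (0.439%). In introns, too, 0 were called lower.

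The 139 regions, called on these same values, had more sox10 and less tfap2B than the rest of the set. Their medians were 226 and 278 scaled reads in sox10, against 34.9 and 49.98 in tfap2B, and the other 1192 regions had 105 and 108 in sox10, against 86.8 and 85.4 in tfap2B. Their inputs had medians of 2.78 and 0.363. The inputs did not enter this fit, but they counted in the filter on low reads, which all 1331 regions passed. Whether inputs played a part in region calling is not given. Inputs of at most 3 reads in both libraries occurred in 51 of the 139 regions (36.7%), beside 78 of the other 1192 (6.54%). What low input has to do with the difference between the factors was not tested.

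**Figure D4:**
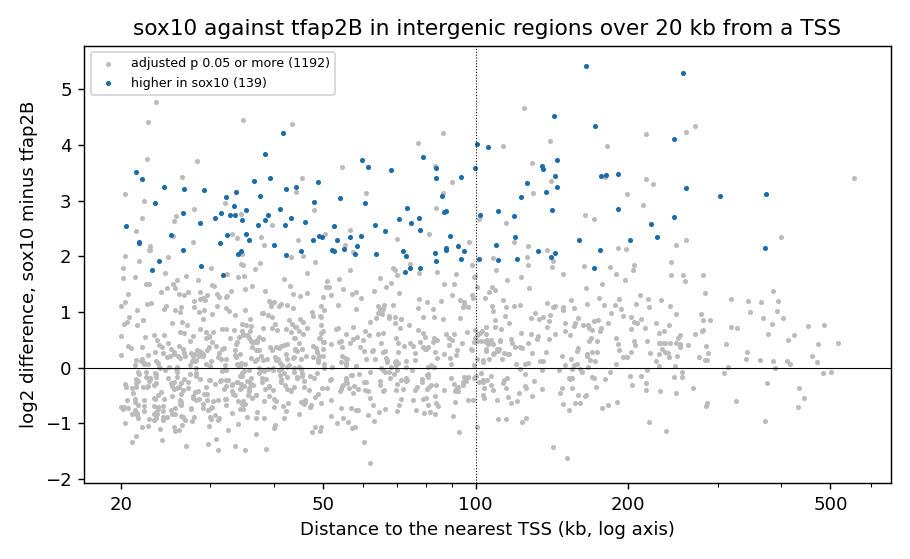
Log2 difference of sox10 and tfap2B (sox10 minus tfap2B) for each of the 1331 far intergenic regions against the distance to the nearest TSS (kb, log axis); the dotted line marks 100 kb and blue points are the 139 regions higher in sox10. The called regions lie on both sides of 100 kb, and none is called below 0.

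Nearer than 100 kb the largest of these differences was at chr9:2354566-2355066, 41.8 kb upstream of a TSS. Sox10 had 269 and 398 scaled reads there, against 42.1 and 6.25 in tfap2B, a log2 difference of 4.22 ± 0.76 (SE, adjusted p = 0.0275). At chr5:14243947-14244447, 38.5 kb upstream of a TSS, sox10 had 275 and 426, against 12.5 and 41.6 in tfap2B (log2 difference 3.84 ± 0.59, SE, adjusted p = 0.0202). Lack of overlap between the groups was a condition for naming both regions. At chr2:103045392-103045892, 78.9 kb from a TSS, sox10 had 231 and 299, against 38.5 and 8.33 in tfap2B. At chr10:6576929-6577429, 59.8 kb from a TSS, sox10 had 159 and 208, against 9.84 and 16.7 in tfap2B, a log2 difference of 3.72 ± 0.54 (SE, adjusted p = 0.0202).

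Gene desert regions followed. At chr2:39780093-39780593, 165 kb upstream of a TSS, sox10 had 388 and 344 scaled reads, against 0.895 and 37.5 in tfap2B, a log2 difference of 5.42 ± 1.13 (SE, adjusted p = 0.0423). At chr2:140389868-140390368, 256 kb away, sox10 had 217 and 264, against 0.895 and 18.7 in tfap2B. In both, tfap2B library 1 held a single read, so its value can stand for 0 or 1, and the log2 differences rest on it: without it they were 3.25 and 3.61, and without tfap2B library 2 they were 7.60 and 6.99. At chr9:2354566-2355066 the difference was 5.50 without tfap2B library 1 and 2.93 without tfap2B library 2, so the order of these regions is not fixed. At chr3:36921813-36922313 sox10 had 126 and 236, against 2.68 and 14.6 in tfap2B, and at chr2:10779934-10780434 sox10 had 129.8 and 243, against 9.84 and 6.25 in tfap2B (log2 difference 4.33 ± 0.60, SE, adjusted p = 0.0202). The count of 139 was 0 without sox10 library 1 and without sox10 library 2 (limma; 284 and 232 higher at an unadjusted p under 0.05), 294 without tfap2B library 1 and 395 without tfap2B library 2. With all 6 libraries in the fit it was also 0 (142 higher and 6 lower at an unadjusted p under 0.05), and edgeR on the pull-downs called 127.

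The regions with the most reads were not all enriched over input. Of the 4 gene desert regions with the highest sox10 mean, 2 had still higher inputs. At chr2:143766794-143767294, 473 kb upstream of a TSS, sox10 had 1411 and 1448 scaled reads, tfap2B 1123 and 1002, and input 7426 and 2921. At chr2:140282312-140282812, 363 kb away, sox10 had 1232 and 1338, tfap2B 1388 and 979, and input 4828 and 3075. All 6 libraries were high in both regions, with the inputs on top, and the log2 differences of sox10 and input were -1.70 and -1.58. Only 4 regions of the set exceeded 1000 scaled reads in both inputs, and all 4 were gene desert regions of chromosome 2.

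Other strong regions stood above input, but with smaller differences than those whose inputs were empty. At chr2:66011805-66012305, 108 kb upstream of a TSS, sox10 had 983 and 1596 scaled reads, tfap2B 527 and 723, and input 525 and 60.6. The log2 difference of sox10 and input was 2.80 ± 0.88 (SE, adjusted p = 0.0373), and that of tfap2B and input, 1.78, did not pass. At chr4:41177632-41178132, 248 kb upstream of a TSS, sox10 had 942 and 1495, tfap2B 815 and 929, and input 446 and 107. The log2 difference from input passed for sox10, at 2.43, but not for tfap2B, at 1.99. Among the regions nearer than 100 kb, chr1:155330862-155331362 had 1174 and 1958 in sox10, 557 and 960.0 in tfap2B, and inputs of 547 and 92.5. Here, too, sox10 passed against input, at 2.74, and tfap2B, at 1.69, did not. At chr4:19356704-19357204 sox10 had 1110.3 and 1263, tfap2B 890.4 and 1304, and input 129 and 13.4, with log2 differences of 4.77 for sox10 and 4.64 for tfap2B that both passed. At chr1:75144732-75145232 sox10 had 842 and 779, tfap2B 453 and 723, and input 149 and 16.3, and both factors passed against input.

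A single library made 1 of the highest means. At chr4:79372316-79372816, 26.0 kb upstream of a TSS, tfap2B library 2 had 3759 scaled reads and tfap2B library 1 had 57.3. The sox10 libraries had 87.7 and 529 and the inputs 38.2 and 0.363. It was called in none of the 3 comparisons, and the gap between its sox10 libraries, 2.58 on the log2 scale, was the widest in the set.

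**Figure D5:**
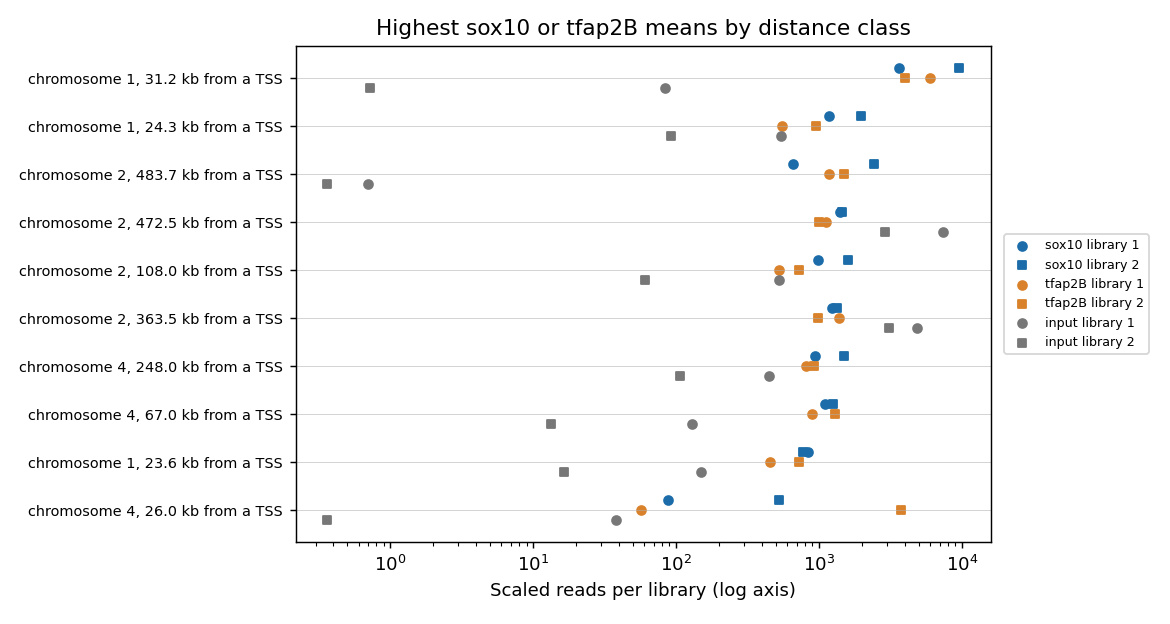
Scaled reads in each of the 6 libraries (log axis) for 10 regions, those among the 4 highest sox10 or tfap2B means of their distance class (over 20 up to 100 kb, or over 100 kb), ordered by the sox10 mean; circles are library 1 and squares library 2. At 472.5 and 363.5 kb from a TSS the inputs lie above all pull-downs, and at 31.2 and 483.7 kb they lie far below them.

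The regions farthest from any TSS varied in level. The farthest, chr1:94434175-94434675, lay 556 kb away in an interval of 1161 kb without genes. It had 143 and 154 scaled reads for sox10, 4.47 and 35.4 for tfap2B, and inputs of 56.97 and 0.363, and was called in no comparison. At chr1:37159239-37159739, 519 kb away, sox10 had 96.1 and 108, tfap2B 92.2 and 60.4, and input 201 and 70.8. At chr1:37239444-37239944, 486 kb away, sox10 had only 22.8 and 39.8, tfap2B 20.6 and 14.6, and input 31.3 and 6.17. None of these 3 regions differed from input beyond the threshold, in contrast to the region 484 kb away described above.

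Regions lower than input, called on these same values, had high inputs. The 67 regions lower in sox10 had medians of 109 and 98.3 scaled reads in sox10, against 363 and 380.3 in input, and their tfap2B medians of 153 and 121 lay above the 74.3 and 79.1 of the whole set. At chr1:77838122-77838622, 21.7 kb upstream of a TSS, sox10 had 70.9 and 65.5, tfap2B 60.9 and 89.5, and input 1542 and 498, with a log2 difference of sox10 and input of -3.66 ± 0.62 (SE, adjusted p = 0.00565). At chr9:23408484-23408984 sox10 had 112 and 53.8, tfap2B 123 and 79.1, and input 1685 and 516. At chr1:112366211-112366711 sox10 had 62.5 and 32.8, against 367 and 380.3 in input. Among gene desert regions, chr3:6359797-6360297 had 24.0 and 23.4 in sox10, 32.2 and 27.1 in tfap2B, and inputs of 495 and 78.7 (log2 difference of sox10 and input -3.01 ± 0.98, SE, adjusted p = 0.0412). Adjacent regions at chr2:7073353-7073853 and chr2:7076806-7077306, 229.6 and 233 kb from a TSS, had inputs of 2626 and 1058, and of 2516 and 1024, with sox10 at 168 and 309, and at 219 and 335. The edgeR test left chr3:6359797-6360297 and chr2:7073353-7073853 just uncalled for sox10 (adjusted p = 0.0512 and 0.0501), and the second was also not called without sox10 library 1 or 2 (limma adjusted p = 0.0707 and 0.0501). The call at chr3:6359797-6360297 was weak: it was lost with total reads, TMM factors, the replicate block and the 2 groups alone (limma adjusted p = 0.0954, 0.100, 0.0554 and 0.0722), and in 5 of 6 fits that left out a library (up to 0.189).

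For tfap2B the largest deficit nearer than 100 kb was at chr3:24611794-24612294, where tfap2B had 8.95 and 8.33 scaled reads, against 241 and 69.3 in input (log2 difference -3.76 ± 0.89, SE, adjusted p = 0.0196). Sox10 had 54.1 and 51.5 there and was not called lower. At chr3:3149051-3149551 tfap2B had 77.9 and 148, against 654 and 775 in input. The gene desert region at chr10:6530393-6530893 lay 106 kb from a TSS, but 6.17 kb from a gene body, in an interval of 72.9 kb. It and the gene desert region at chr8:8811619-8812119 had 83.2 and 83.3, and 54.6 and 87.5, in tfap2B, against 823 and 259, and 649 and 204, in input. Total reads, TMM factors and edgeR each ended both of these calls (adjusted p from 0.0529 to 0.104), and the replicate block and the 2 groups alone ended that on chromosome 8 as well (limma adjusted p = 0.0581 and 0.05005). At chr3:24611794-24612294 the call was lost with TMM factors and with the 2 groups alone (limma adjusted p = 0.0513 and 0.0694). In all 3 regions 4 of 6 fits that left out a library, those without 1 of the pull-down libraries, ended the call.

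The 3 chains with the most regions differed in level. A chain of 7 regions over 40.6 kb on chromosome 6, from 3717542 to 3758100, lay 75.8 to 116 kb from a TSS. Its medians were 231 and 124 scaled reads with sox10, 133 and 95.8 with tfap2B and 28.5 and 52.98 with input; 4 of the 7 were higher than input for sox10 and 3 for tfap2B. A chain of 7 over 75.2 kb on chromosome 5, from 5685508 to 5760738, had medians of 48.1 and 35.1 in sox10, 31.3 and 24.99 in tfap2B, and inputs of 72.95 and 158, with none higher and 2 lower for tfap2B. Another chain of 7, on chromosome 1, from 1899089 to 1953890, had 124 and 117 in sox10, 98.4 and 104 in tfap2B, and inputs of 49.3 and 272, with no call. Long intervals differed as much, beside shares higher than input of 32.2% for sox10 and 21.0% for tfap2B over the set. The interval with the most regions, 588 kb on chromosome 6, had 4 of 8 higher for sox10 and 3 for tfap2B. At the ends of the range were 2 intervals of chromosome 2. In that of 555 kb, with 7 regions between 52315993 and 52840921, all 7 were higher for sox10 and 6 for tfap2B. Of these 7, however, 5 lay within 16.4 kb, from 52824479 to 52840921, so the calls do not spread evenly over the interval. In that of 971 kb, with 7 regions between 143557188 and 144185534, none was higher for either factor.

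In the earlier HH10 cells, genes with the nearest TSS to far intergenic regions had low transcript levels. The 1331 regions had 935 such genes, of which 680 were nearest to 1 region each. Their median was 1.65 RPKM (counts scaled for gene length and library total; 95% interval across genes 0.829 to 2.61), against 10.4 RPKM (9.68 to 11.3) for the 5770 genes nearest to the other regions of these chromosomes. No count was found for 353 of the 935 genes (37.8%), against 921 of the 5770 (16.0%). Most of these other regions, 4329 of 6992, lay within 1 kb of a TSS. The lists also share genes, as together they hold 6243. Levels for introns or nearer intergenic regions alone were not taken. The 270 genes nearest to gene desert regions had a median of 0.206 RPKM (0 to 0.860), and 120 of them (44.4%) had no count. With the second nearest TSS in place of the nearest, the medians lay closer together: 2.09 RPKM for far regions, against 4.48 RPKM for the other regions, and 1.02 RPKM for gene desert regions. At least 10 RPKM was reached by 292 of the 935 genes (31.2%) and by 65 of the 270 (24.1%). There is 1 RNA library of 28777461 counts, so these levels have no replicate check, the intervals cover the spread over genes only, and fewer cells with a transcript and less of it per cell cannot be told apart.

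HH10 levels were also taken by call. Against input, the median for sox10 was 1.54 RPKM (0.478 to 3.04) for the 361 genes nearest to higher regions, 4.29 RPKM (1.06 to 14.2) for the 57 nearest to lower regions and 0.944 RPKM (0.422 to 2.19) for the 650 nearest to regions that did not pass. For tfap2B against input it was 1.05 RPKM (0.175 to 3.40) for 244 genes near higher regions, 0.073 RPKM (0 to 8.26) for 33 near lower regions and 1.55 RPKM (0.745 to 2.52) for 772 near regions that did not pass. Regions higher in sox10 than in tfap2B had 131 such genes with a median of 1.17 RPKM (0.254 to 3.48), and those that did not pass had 868 with 1.65 RPKM (0.778 to 2.61). Within each comparison the intervals overlap, and the genes are shared in part between the lists. The gene nearest to the most regions, ENSGALG00000042812, had 8 of them at 75.8 to 184 kb and 20 counts, or 0.513 RPKM. The files and the gene table used here do not pair Ensembl IDs with symbols.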

How the data were processed

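Regions and scaled reads come from the deposited chromatin table, a signal that is whole reads times 1 constant per library (tolerance 0.01 read); the sources used here give neither the origin of the constants nor the method of region calling. HH10 values come from the deposited gene table, which holds raw counts per Ensembl gene per the file headers; its HH10 column occurs 2 times with identical values, and the 21 columns belonging to further samples were set aside. Per the submitters' processing notes, DiffBind, DESeq2, Bowtie, featureCounts, STAR 2.4.2a and Subread 1.4.5 were used, in roles not listed, with build galGal5. Coordinates are as deposited; whether starts count from 0 or 1 is not given. TSS means the outer 5′ end of a gene, so alternative starts inside a gene are not seen. No genome was used here, so no sequence or motif is given; 0 of the Ensembl IDs matched a symbol, and the labelled cell type was not checked against marker genes.

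Log2(scaled reads + 1) values were tested by limma 3.58.1 with its trend option, a scale that understates changes of low regions, fitted over all 25281 regions left by filterByExpr of edgeR 4.0.16 on the recovered reads, with Benjamini-Hochberg adjusted p under 0.05. Comparisons with input used all 6 libraries (3 residual degrees of freedom), and sox10 against tfap2B used 4 (2 residual degrees of freedom). Each fit assumed the same spread in all its groups. The script was tested on simulated data. Regions to name were those called without overlap between groups and at or above the median level, the 4 largest differences per distance class, comparison and direction, at most 1 per nearest gene, plus the 5 farthest from a TSS, the 4 with the highest mean per factor and class, and the 3 chains with the most regions. Not all were printed where values repeat. The set, the rules, the lists and the choice to leave the inputs out of the third fit were made with earlier results of these data known. Values with 95% intervals are medians with order-statistic bounds.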

Additional observations from a re-analysis of the deposited data

How the results depend on the processing

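Counts are of the 1331 far intergenic regions, given as higher and then lower. At adjusted p under 0.01 they were 234 and 8 (sox10 against input), 112 and 6 (tfap2B against input) and 0 higher (sox10 against tfap2B). Total reads gave 14 lower in sox10 and 9 lower in tfap2B than in input, TMM factors 18 and 9, and edgeR 14 and 8. With only the groups compared, 16 were lower for tfap2B against input. With all 6 libraries 0 were higher for sox10 against tfap2B. A pseudocount of 10 and no filter kept all counts within 1.5 times. Leaving out 1 library gave 106 to 628 higher and 0 to 162 lower in sox10 than in input, 0 to 533 and 0 to 110 in tfap2B than in input, and 0 to 395 and 0 to 120 for sox10 against tfap2B; a group left with 1 library is then assumed to vary like the others. The 120 lower regions appear only without tfap2B replicate 2, and 6 without tfap2B replicate 1.

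The labels do not say that replicate numbers pair libraries. Deviations of same-numbered libraries correlated at 0.05 between sox10 and tfap2B, -0.03 between sox10 and input and -0.27 between tfap2B and input. With the replicate number as a block, sox10 against input gave 393 and 37 calls, tfap2B against input 226 and 23, and sox10 against tfap2B 254 and 1. With the input numbers crossed, an alternative chosen after seeing the data, tfap2B against input gave 334 and 38.

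With total reads the mean of the library medians was 141 for sox10 and 93.5 for tfap2B, against 119 and 76.7 as deposited. With the second nearest TSS the median HH10 level was 2.09 RPKM, against 4.48 RPKM for the other regions. Of the called differences at the regions chosen for naming, not all passed the threshold when recomputed with a library left out. Under the other settings 284 results passed and 52 did not. No sign changed, but these regions were chosen for large differences without overlap between groups. A kept sign is therefore no check on them. Few reads limit part of the set in every library. Fewer than 20 reads were held by 338 and 490 far regions in inputs 1 and 2, although the inputs were the deepest libraries. For tfap2B these were 163 and 332 far regions in libraries 1 and 2, and for sox10 52 and 197.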
